A study of Mus musculus with 31 samples.

Results

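The 9 genes Gria1, Gria2, Gria3 and Gria4, which encode the subunits of AMPA receptors, and Grik1, Grik2, Grik3, Grik4 and Grik5, which encode those of kainate receptors, were followed through 2 inbred mouse strains, 2 forebrain regions and 2 rearing conditions. They were chosen by family membership, not by their values. Their probes were found through the RefSeq accessions printed with the array design: all 9 were measured, by 14 probes, among 30164 tested features (genes, and probes without a gene symbol). Gria2, Gria3, Gria4, Grik2 and Grik3 had 2 probes each, and the brighter one stood for the gene. All 9 representative probes were well above background on each of the 31 arrays.

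AMPA and kainate receptors are tetrameric cation channels opened by glutamate. AMPA receptors carry most of the fast excitatory current at central synapses; the GluA2 subunit, the product of Gria2, makes them impermeable to calcium once its transcript has been edited. Kainate receptors act on both sides of the synapse: GluK1 to GluK3 (Grik1 to Grik3) can form channels by themselves, whereas GluK4 and GluK5 (Grik4 and Grik5) bind glutamate with high affinity and need a partner from the first set. In the medial prefrontal cortex (mPFC) most principal neurons are excitatory, while most neurons of the nucleus accumbens (NAc) are GABAergic projection neurons that receive cortical glutamatergic input, and AMPA receptors of the NAc are a much-studied site of plasticity after cocaine.

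The animals were females aged 12 weeks, of the inbred strains C57BL/6J (C57) or DBA2/J (DBA), and RNA of their mPFC or NAc was hybridised to arrays with 1 fluorescent dye. Under repeated cross-fostering (RCF), a litter was given to a different dam every day from postnatal day 1 to day 4, the last dam raising it; control litters were lifted and given back to their own dam. Both were weaned on day 28, and no more than 2 animals of a litter were used, so replicates of a group can be littermates. After near-duplicate arrays had been averaged, C57 mice gave 3 control and 4 RCF samples of mPFC with 2 control and 4 RCF samples of NAc, and DBA mice gave 3 and 3 samples of mPFC with 4 and 4 of NAc.

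The labels limit what follows. For 29 of the 31 arrays, the scanner file listed with a sample was not the one that matched that sample's column in the authors' value table, and arrays were assigned by that table. Marker genes of tissue or strain then lay on the other side of a midpoint for 6 of the 27 samples, called the samples in doubt: C57 mPFC control 3 and RCF 1, whose striatal minus cortical marker scores of 3.56 and 3.96 were above the midpoint of 1.90; C57 NAc control 1 and 3 (1 averaged sample) and RCF 1, at -1.40 and -1.03; and DBA mPFC control 1 and DBA NAc control 4, whose strain scores of 5.35 and 7.26 (Glo1 and Gabra2 against Gpnmb) were below the midpoint of 9.11. DBA mPFC control 1 also had an Xist level of -5.87, below the midpoint of -2.59. The samples in doubt were kept, and the results are also given without them. Results without them leave 1 C57 NAc control and are not independent of the marker genes. Each slide held 1 strain and 1 region, so slide cannot be told apart from strain or region, while RCF and control shared slides. The share of probes well above background was 58.6% to 81.9% per array.

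Of the 9 members, 6 had an entry in the RefSeq promoter table (build GRCm38.p6; 250 bases before to 50 after the gene's start): Gria2, Gria4, Grik2, Grik3, Grik4 and Grik5. The 4 shown are those of members that differed between regions or strains. Capitals mark the motifs found on either strand; the Gria2 and Grik2 windows held none of the 5 searched and are in lower case throughout. The windows lie at chr3:80802786-80803085 (minus strand) for Gria2, chr9:4796185-4796484 (minus) for Gria4, chr10:49788705-49789004 (minus) for Grik2 and chr4:125490446-125490745 (plus) for Grik3.
Gria2: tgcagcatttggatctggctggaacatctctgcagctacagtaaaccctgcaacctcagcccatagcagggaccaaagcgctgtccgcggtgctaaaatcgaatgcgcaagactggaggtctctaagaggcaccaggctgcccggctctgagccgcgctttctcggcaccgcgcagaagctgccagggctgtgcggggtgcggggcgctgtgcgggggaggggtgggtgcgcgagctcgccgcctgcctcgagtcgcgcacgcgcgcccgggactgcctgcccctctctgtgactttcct
Gria4: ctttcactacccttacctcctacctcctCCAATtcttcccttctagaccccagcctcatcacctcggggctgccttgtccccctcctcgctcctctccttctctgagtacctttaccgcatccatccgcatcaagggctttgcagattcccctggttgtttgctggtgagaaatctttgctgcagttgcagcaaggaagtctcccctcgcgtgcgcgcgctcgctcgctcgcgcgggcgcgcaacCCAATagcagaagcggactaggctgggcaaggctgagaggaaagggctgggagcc
Grik2: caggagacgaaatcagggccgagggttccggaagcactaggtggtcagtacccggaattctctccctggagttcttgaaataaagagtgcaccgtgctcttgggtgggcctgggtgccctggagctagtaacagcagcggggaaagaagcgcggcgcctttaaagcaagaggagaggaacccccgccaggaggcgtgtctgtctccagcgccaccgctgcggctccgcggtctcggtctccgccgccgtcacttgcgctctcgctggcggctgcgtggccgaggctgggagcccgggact
Grik3: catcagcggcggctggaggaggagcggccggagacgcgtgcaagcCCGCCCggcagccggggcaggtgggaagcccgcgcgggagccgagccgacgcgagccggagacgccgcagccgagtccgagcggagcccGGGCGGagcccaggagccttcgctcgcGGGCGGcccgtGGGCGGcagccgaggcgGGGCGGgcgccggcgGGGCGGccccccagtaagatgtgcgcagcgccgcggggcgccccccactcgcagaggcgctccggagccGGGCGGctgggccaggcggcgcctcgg

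These windows were richer in G and C than the median promoter of the table (52.7% over 32851 promoters): 65.7% for Gria2, 59.7% for Gria4, 64.7% for Grik2 and 82.0% for Grik3. The motifs searched, on both strands, were the GC box (GGGCGG, in 35.7% of all promoters of this length), the cAMP response element (TGACGTCA, 1.79%), the E box (CACGTG, 7.15%), the TATA box (TATAAA, 13.6%) and CCAAT (37.4%). Gria4 held 2 CCAAT motifs, which begin 222 and 5 bases before the start. Grik3 held 7 GC boxes, and Grik4 and Grik5 2 each. A match describes the letters of the window and is no measurement of binding.

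Levels are given as log2 signal after subtraction of the 75th percentile of the same array, here called log2 level; differences of group means on that scale are called log2 differences and carry the standard error (SE) of the limma model. A level of 1 probe is not compared with that of another. Across the 8 groups, the mean log2 level of Gria2 ranged from 1.05 ± 0.48 (SD, n = 3, DBA mPFC control) to 2.40 ± 0.01 (n = 2, C57 NAc control), and that of Grik2 from -1.98 ± 0.58 (n = 4, C57 mPFC RCF) to 0.02 ± 0.15 (n = 4, DBA NAc control). Group means ran for Gria3 from 1.59 (DBA NAc control) to 3.33 (DBA mPFC RCF), Gria4 from 1.76 (C57 NAc RCF) to 2.70 (DBA mPFC RCF), Gria1 from 2.66 (DBA mPFC control) to 3.54 (C57 mPFC RCF), and Grik3 from 1.65 (C57 NAc control) to 2.55 (C57 mPFC RCF). Grik1 (-0.65 to -0.09), Grik4 (2.33 to 2.73) and Grik5 (3.05 to 3.69) did not pass the test for strain or region with all samples.

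With the 8 group means of a gene put in order, samples of neighbouring groups overlapped in every case but 1. The exception was Gria2: the lowest sample of the C57 NAc RCF group (mean 2.04) had a log2 level of 1.63, and the highest of the next group, DBA mPFC RCF, had 1.43. All 4 C57 groups thus stood above all 4 DBA groups in mean Gria2 level. How often neighbouring groups overlapped over all features was not counted.

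**Figure D1:**
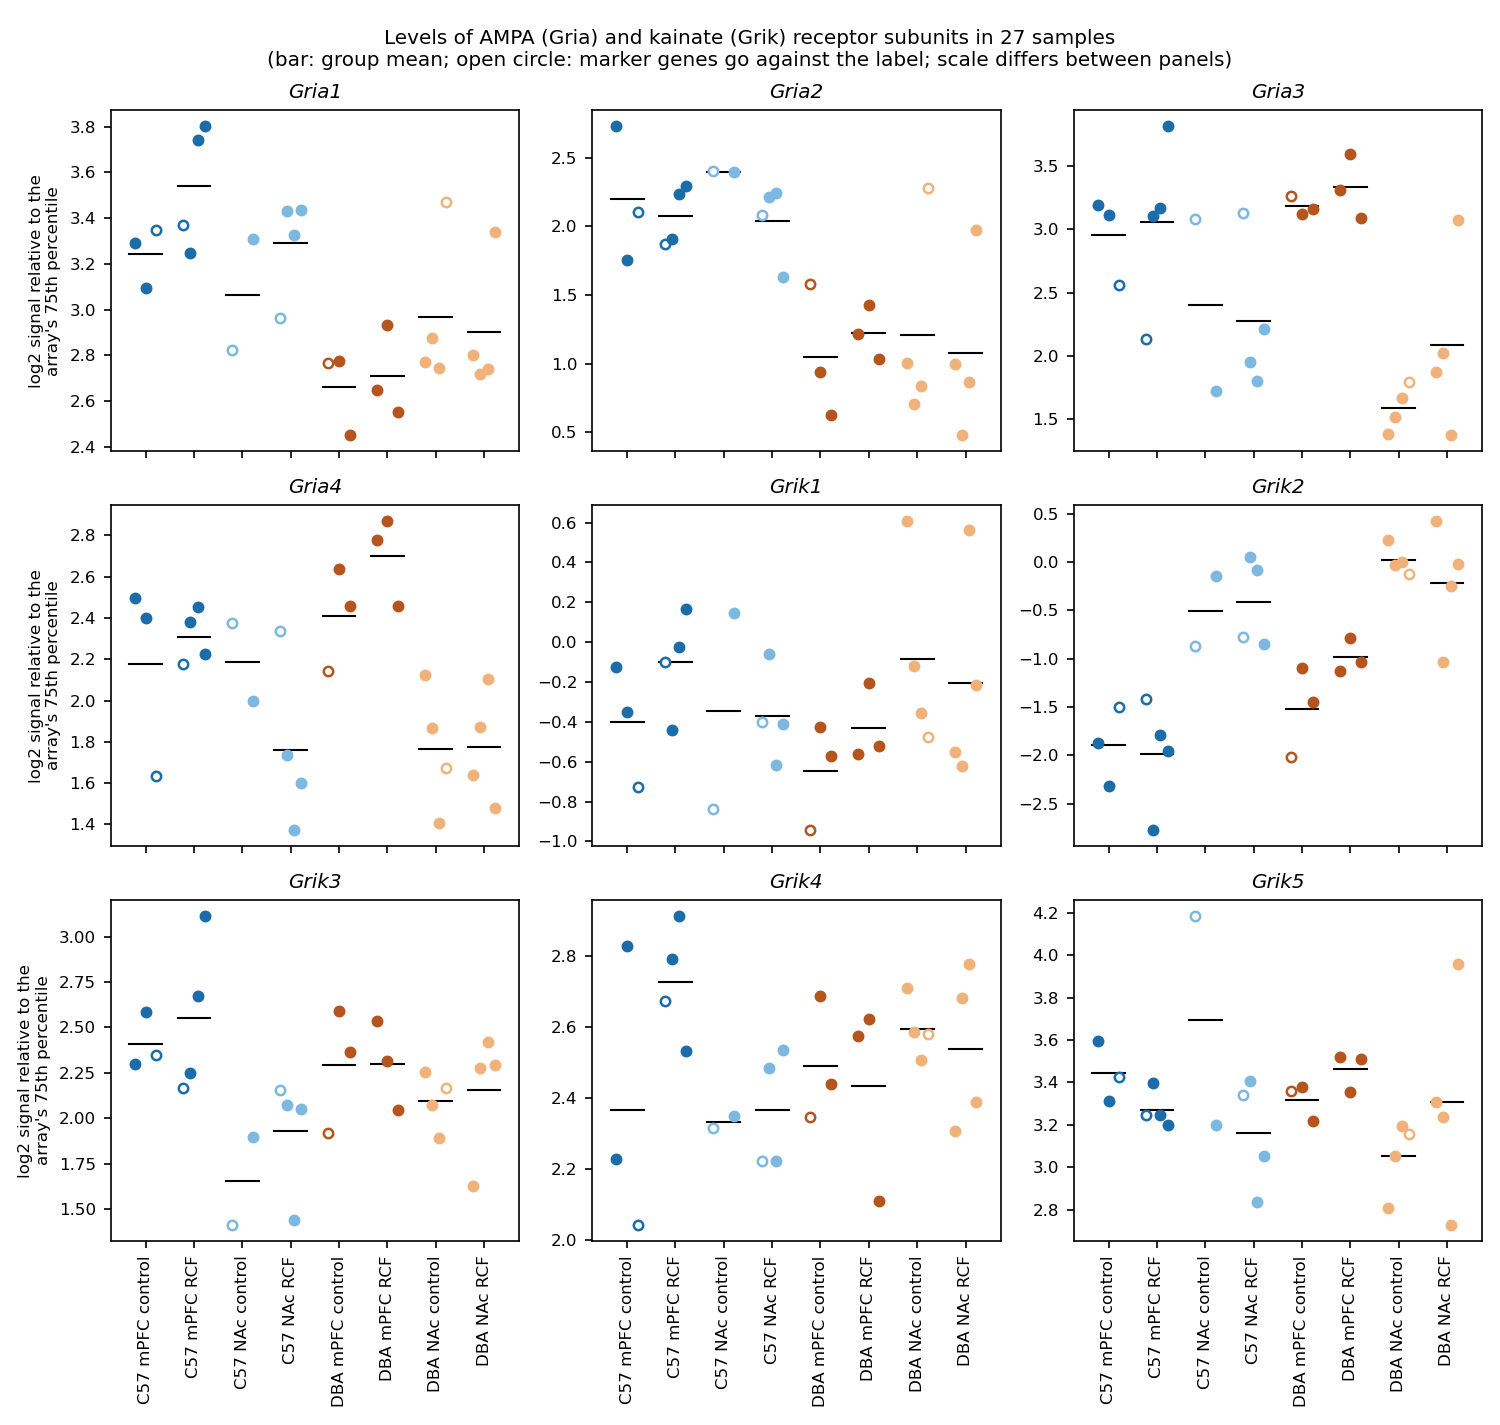
Log2 level (signal scaled to the 75th percentile of its array) of the 9 receptor subunit genes in 27 samples, by group; points are samples, bars group means, open circles the 6 samples in doubt, and the vertical scale differs between panels. Gria2 has C57 group means of 2.04 to 2.40 and DBA group means of 1.05 to 1.23, and Grik2 is highest in the NAc groups.

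The first comparison asked how receptor subunits differ between the NAc and the mPFC. In C57 mice, 2 of the 9 members passed the threshold (limma, adjusted p under 0.05 over all features), where 10.1% of all features did; in DBA mice 3 did, where 56.7% of all features did, so that the members' share in DBA was below the background. The median log2 difference of the members was -0.20 in C57 and 0.01 in DBA, against -0.04 and -0.13 for all features. Among AMPA subunits, Gria3 and Gria4 were lower in the NAc of DBA mice; among kainate subunits, Grik2 was higher in the NAc of both strains and Grik3 lower in the NAc of C57 mice.

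Gria3 encodes GluA3, which forms receptors with GluA2. In the DBA mPFC its log2 levels were 3.26 (control 1), 3.12 (controls 2 and 4, averaged) and 3.16 (control 3), then 3.31 (RCF 1 and 3, averaged), 3.60 (RCF 2) and 3.09 (RCF 4). In the DBA NAc they were 1.38, 1.52, 1.67 and 1.80 in controls 1 to 4 and 1.87, 2.02, 1.37 and 3.07 in RCF 1 to 4. Every mPFC sample lay above every NAc sample, but RCF 4 of the NAc came close to the lowest mPFC sample. That gave a log2 difference of -1.42 ± 0.27, a 2.67-fold lower signal in the NAc (adjusted p = 0.00013). It was -1.59 in control mice (adjusted p = 0.0025) and -1.25 in RCF mice (adjusted p = 0.013), where 38.4% and 39.1% of all features passed.

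In C57 mice Gria3 did not pass in all samples (-0.67 ± 0.29, adjusted p = 0.14). Its log2 levels there were 3.19, 3.11 and 2.56 in mPFC controls 1 to 3 and 2.13, 3.102, 3.17 and 3.82 in mPFC RCF 1 to 4. The NAc gave 3.08 (controls 1 and 3, averaged), 1.72 (controls 2 and 4, averaged), and 3.13, 1.95, 1.80 and 2.22 in RCF 1 to 4. The 4 samples that break the order, 2.56 and 2.13 in the mPFC and 3.08 and 3.13 in the NAc, are the 4 C57 samples in doubt. Without the samples in doubt, the mPFC ranged from 3.102 to 3.82 and the NAc from 1.72 to 2.21, and the log2 difference was -1.40 ± 0.26 (adjusted p = 0.00088), beside -1.43 in DBA. Leaving out C57 NAc control 1 and 3 alone (-1.01, adjusted p = 0.0385) or C57 mPFC RCF 1 alone (-0.82, adjusted p = 0.0494) also brought Gria3 past the threshold. Those samples were set apart by tissue marker genes, so this comparison is not independent of those genes.

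Gria4 encodes GluA4, an AMPA subunit well known from interneurons and early development. Its log2 levels in the DBA mPFC were 2.14, 2.64 and 2.46 in controls and 2.78, 2.87 and 2.46 in RCF samples. In the DBA NAc they were 2.12, 1.87, 1.41 and 1.67 in controls 1 to 4 and 1.64, 1.87, 2.10 and 1.48 in RCF 1 to 4. No samples of the 2 regions overlapped, with control 1 of the mPFC, a sample in doubt, just above the highest NAc sample. Between regions Gria4 had a log2 difference of -0.79 ± 0.16 (1.72-fold lower in the NAc, adjusted p = 0.00025), being -0.64 in control mice (adjusted p = 0.027) and -0.93 in RCF mice (adjusted p = 0.0027). In C57 mice it was -0.27 ± 0.17 (adjusted p = 0.32), and -0.62 ± 0.16 (adjusted p = 0.0092) without the samples in doubt, where the regions ranged from 1.37 to 2.00 and from 2.23 to 2.496.

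The remaining AMPA subunits did not pass between regions. Gria1, which encodes GluA1, a subunit inserted into synapses during potentiation, had log2 differences of -0.21 ± 0.14 in C57 (95% interval -0.51 to 0.09, adjusted p = 0.36) and 0.25 ± 0.14 in DBA (-0.03 to 0.53, adjusted p = 0.13). Those of Gria2 were 0.08 ± 0.25 in C57 (-0.44 to 0.61, adjusted p = 0.87) and 0.01 ± 0.24 in DBA (-0.49 to 0.50, adjusted p = 0.99).

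Grik2, which encodes GluK2, the subunit most kainate receptors of the forebrain contain, was the member with the largest difference between regions in C57. Its log2 levels in the C57 mPFC were -1.87, -2.32 and -1.50 in controls 1 to 3 and -1.41, -2.78, -1.79 and -1.95 in RCF 1 to 4. In the C57 NAc they were -0.87 and -0.14 in the averaged controls and -0.78, 0.05, -0.08 and -0.84 in RCF 1 to 4. The regions as labelled did not overlap on this probe, and the samples in doubt lay near the other region (-1.50 and -1.41 in the mPFC, -0.87 and -0.78 in the NAc). By tissue marker genes those samples lay on the side of the other region. On the other Grik2 probe their order was reversed, at -1.01 and -1.13 in the mPFC and -2.08 and -1.49 in the NAc. For the brighter probe the log2 difference was 1.48 ± 0.25 (2.79-fold higher in the NAc, 95% interval 0.97 to 1.99, adjusted p = 0.0011). Without the samples in doubt it was 1.92 ± 0.29. It was 1.39 in control mice (adjusted p = 0.15), where 0.103% of all features passed, and 1.57 in RCF mice (adjusted p = 0.0042), where 7.73% did.

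In DBA mice Grik2 was 2.22-fold higher in the NAc, a log2 difference of 1.15 ± 0.23 (adjusted p = 0.00024). The mPFC samples ran from -2.02 (control 1) to -0.79 (RCF 2) and the NAc samples from -1.04 (RCF 2) to 0.43 (RCF 1), so that NAc RCF 2 overlapped the mPFC while the other 7 NAc samples, at -0.25 or above, did not. Among control mice the difference was 1.54 (adjusted p = 0.00095) and among RCF mice 0.76 (adjusted p = 0.068); the difference between those values, the region by fostering interaction, did not pass. Without the samples in doubt it was 1.05 ± 0.23 (adjusted p = 0.00095).

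Grik3, which encodes GluK3, a low-affinity kainate subunit, was lower in the NAc of C57 mice. Its mPFC log2 levels were 2.30, 2.59 and 2.35 in controls and 2.17, 2.25, 2.68 and 3.12 in RCF 1 to 4. Its NAc levels were 1.41 and 1.90 in the averaged controls and 2.16, 2.08, 1.44 and 2.05 in RCF 1 to 4. The regions did not overlap, with mPFC RCF 1 and NAc RCF 1, both in doubt, next to each other. Grik3 had a log2 difference of -0.69 ± 0.17 (1.61-fold, adjusted p = 0.015). It was -0.76 in control mice (adjusted p = 0.27) and -0.62 in RCF mice (adjusted p = 0.073), past the threshold in neither. Over both it was no longer past the threshold without C57 NAc control 1 and 3 (-0.57, adjusted p = 0.0649), or with the mean of both probes (-0.54, adjusted p = 0.11). Without the samples in doubt the C57 difference was -0.685 ± 0.21. In DBA mice the log2 difference was -0.17 ± 0.16 (adjusted p = 0.38). Grik1, Grik4 and Grik5 had log2 differences between -0.21 and 0.39 in both strains, with adjusted p-values from 0.095 (Grik1 in DBA) to 0.82; without DBA NAc RCF 4, Grik5 passed in DBA (-0.32, adjusted p = 0.0449).

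**Figure D2:**
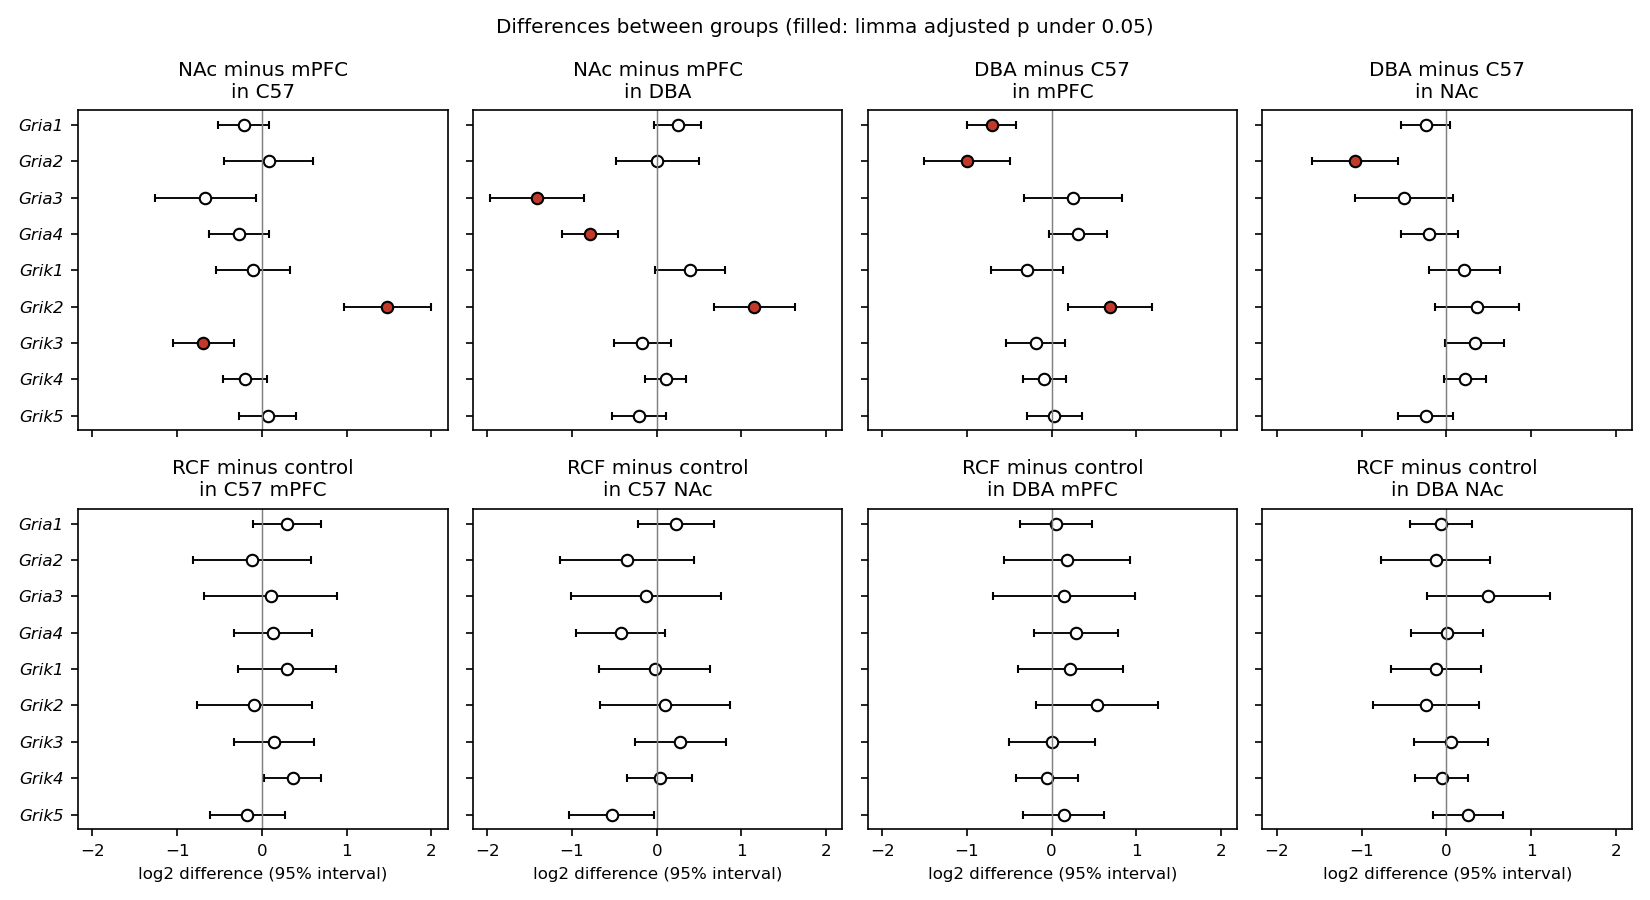
Log2 differences with 95% intervals for the 9 members in the 2 region, 2 strain and 4 fostering comparisons; filled points have a limma adjusted p under 0.05 over all features. Grik2 is filled in both region panels (1.48 and 1.15), Gria2 in both strain panels (-1.002 and -1.08), and no point is filled in the fostering panels.

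Marker genes of cell types moved with the regions. In DBA mice, 19 of 20 genes of striatal projection neurons were higher in the NAc, 16 of 19 genes of cortical excitatory neurons lower, 6 of 10 oligodendrocyte genes higher and 7 of 10 microglial genes lower. Of all features, 19.5% were higher and 37.2% lower there. The mean cortical list level was 1.29 to 1.72 in the DBA mPFC and -2.66 to -0.05 in the DBA NAc, the highest NAc value being that of RCF 4, which also had the highest NAc level of Gria3. In C57 mice none of the 20 striatal genes passed (all 20 had positive differences) and 3 of 19 cortical genes were lower. Of all features, 3.74% were higher and 6.32% lower there. Cortical list levels were -0.41 to 1.35 in the C57 mPFC and -2.22 to 1.34 in the C57 NAc. The lowest of these mPFC values and the highest of these NAc values belonged to samples in doubt. In such bulk samples fewer cells of a type and less RNA per cell cannot be told apart, and region and cell composition cannot be told apart here.

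**Figure D3:**
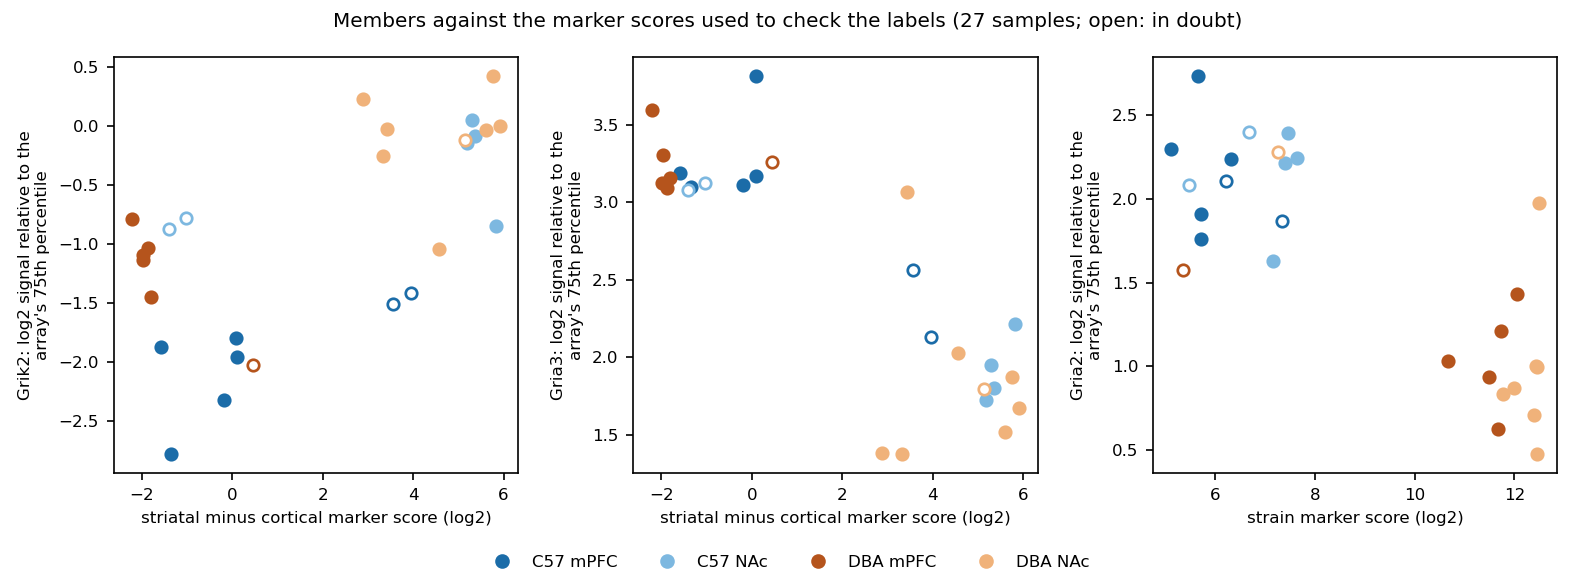
Log2 levels of Grik2 and Gria3 against the striatal minus cortical marker score and of Gria2 against the strain marker score, 1 point per sample (27 samples; open circles are the 6 in doubt), coloured by strain and region. The C57 samples in doubt labelled mPFC have tissue scores of 3.56 and 3.96 and Gria3 levels of 2.56 and 2.13, and the DBA samples in doubt have strain scores of 5.35 and 7.26 and Gria2 levels of 1.58 and 2.28.

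The second comparison set DBA against C57 mice within each region. Gria1 and Gria2 were lower and Grik2 higher in the DBA mPFC, and Gria2 was lower in the DBA NAc. That is 3 of 9 members in the mPFC, where 48.2% of all features passed, and 1 of 9 in the NAc, where 31.9% did; both shares were below the background. The members' median log2 difference was -0.08 (mPFC) and -0.20 (NAc), and that of all features 0.07 and -0.02.

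Gria2 gave the largest strain difference among the members. Its log2 levels in the mPFC were 2.73, 1.76 and 2.11 in C57 controls and 1.87, 1.91, 2.24 and 2.30 in C57 RCF mice. The DBA mPFC gave 1.58 (control 1, in doubt), 0.94 and 0.63 in controls and 1.21, 1.43 and 1.03 in RCF mice. The strains did not overlap in the mPFC, and the log2 difference was -1.002 ± 0.25 (2.00-fold lower in DBA, adjusted p = 0.0019). By rearing it was -1.15 in control mice (adjusted p = 0.023) and -0.85 in RCF mice (adjusted p = 0.052), where 24.4% and 35.1% of all features passed.

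In the NAc, Gria2 had log2 levels of 2.40 and 2.39 in the averaged C57 controls and 2.08, 2.22, 2.24 and 1.63 in C57 RCF 1 to 4. The DBA NAc gave 1.00, 0.71, 0.83 and 2.28 in controls 1 to 4 and 1.00, 0.48, 0.87 and 1.97 in RCF 1 to 4. DBA control 4, whose strain score lay on the C57 side, and DBA RCF 4, whose strain score of 12.48 did not, fell among the C57 samples; the other 6 DBA samples lay below all 6 C57 samples. In the NAc as a whole the log2 difference was -1.08 ± 0.25 (2.11-fold lower in DBA, adjusted p = 0.0019). It was -1.19 in control mice (adjusted p = 0.034) and -0.96 in RCF mice (adjusted p = 0.036), where 17.2% and 15.9% of all features passed. Without the samples in doubt it was -1.25 ± 0.25 in the NAc, in a fit that leaves 1 C57 NAc control. In the mPFC it was -1.19 ± 0.24 (adjusted p = 0.00065). The DBA samples in doubt were set apart by strain marker genes, so these values are not independent of those genes.

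The other Gria2 probe did not show this difference. Its log2 levels ran from 0.37 to 1.06 in the C57 mPFC and 0.27 to 0.61 in the DBA mPFC, and from 0.05 to 0.46 in the C57 NAc and -0.66 to 0.42 in the DBA NAc. Between strains it had log2 differences of -0.21 ± 0.14 (mPFC, adjusted p = 0.24) and -0.23 ± 0.14 (NAc, adjusted p = 0.24), against -1.002 and -1.08 for the brighter probe. The strain difference of Gria2 is therefore that of 1 of its 2 probes; why the probes differ was not tested.

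Gria1 was lower in the DBA mPFC. The C57 mPFC gave log2 levels of 3.29, 3.095 and 3.35 in controls and 3.37, 3.25, 3.74 and 3.804 in RCF mice, against 2.76, 2.77 and 2.45 in DBA controls and 2.65, 2.93 and 2.55 in DBA RCF mice. The strains did not overlap, and the log2 difference was -0.71 ± 0.14 (1.63-fold lower in DBA, adjusted p = 0.00029), being -0.58 in control mice (adjusted p = 0.042) and -0.83 in RCF mice (adjusted p = 0.0021). In the NAc it was -0.24 ± 0.14 (adjusted p = 0.19). There the C57 levels ran from 2.82 to 3.44, and 6 of the 8 DBA samples from 2.72 to 2.88, the others being DBA control 4 at 3.47 and DBA RCF 4 at 3.34. Without the samples in doubt the NAc log2 difference was -0.50 ± 0.14, in a fit that leaves 1 C57 NAc control. The samples left out include DBA control 4 at 3.47 and C57 control 1 and 3 at 2.82. They were set apart by marker genes of strain or tissue, so this value is not independent of those genes. Gria1 had 1 probe.

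Grik2 was higher in the DBA mPFC than in the C57 mPFC, by a log2 difference of 0.69 ± 0.24 (1.61-fold, adjusted p = 0.021), with C57 levels from -2.78 to -1.41 and DBA levels from -2.02 to -0.79 that overlapped. The call was lost under quantile normalization (0.58, adjusted p = 0.053), under another background correction (0.35, adjusted p = 0.17), with the mean of both probes (0.43, adjusted p = 0.11), without C57 mPFC control 2 (0.58, adjusted p = 0.0646) and without DBA mPFC control 2 and 4 (0.58, adjusted p = 0.0657). By rearing it was 0.38 in control mice (adjusted p = 0.47) and 1.002 in RCF mice (adjusted p = 0.021). Without the samples in doubt it was 1.01 ± 0.25, with C57 levels from -2.78 to -1.79 and DBA levels from -1.45 to -0.79. In the NAc the log2 difference was 0.36 ± 0.24 (adjusted p = 0.26). The other members had strain log2 differences of -0.29 to 0.31 in the mPFC (adjusted p 0.12 to 0.88) and -0.50 to 0.33 in the NAc (adjusted p 0.13 to 0.44). Without C57 NAc control 2 and 4, the NAc differences were -0.84 for Gria3 and -0.49 for Grik5. That fit leaves only the control in doubt among the C57 NAc controls. Without the samples in doubt the differences were -0.05 and 0.01. Without DBA NAc RCF 4, Grik5 passed in the NAc (-0.35, adjusted p = 0.0499).

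Of the oligodendrocyte and astrocyte genes, 5 of 10 and 5 of 10 were lower in the DBA mPFC, where 19.1% of all features were. The mean oligodendrocyte list level was 2.84 to 3.68 in the C57 mPFC and 2.04 to 3.64 in the DBA mPFC, each highest in a sample in doubt. Without the samples in doubt it was 2.84 to 3.24 in the C57 mPFC and 2.04 to 2.63 in the DBA mPFC, with no overlap. Of the striatal list, 5 of 20 genes were lower in the DBA mPFC, near that share of all features. The striatal list levels of -0.49 to 1.74 in the DBA mPFC reached less high than those of the C57 mPFC (-0.29 to 3.56). Both highest values belonged to samples in doubt. Without the samples in doubt the levels were -0.49 to -0.24 in the DBA mPFC and -0.29 to 1.35 in the C57 mPFC. The part of these marker genes in the strain differences of Gria1, Gria2 and Grik2 was not tested.

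**Figure D4:**
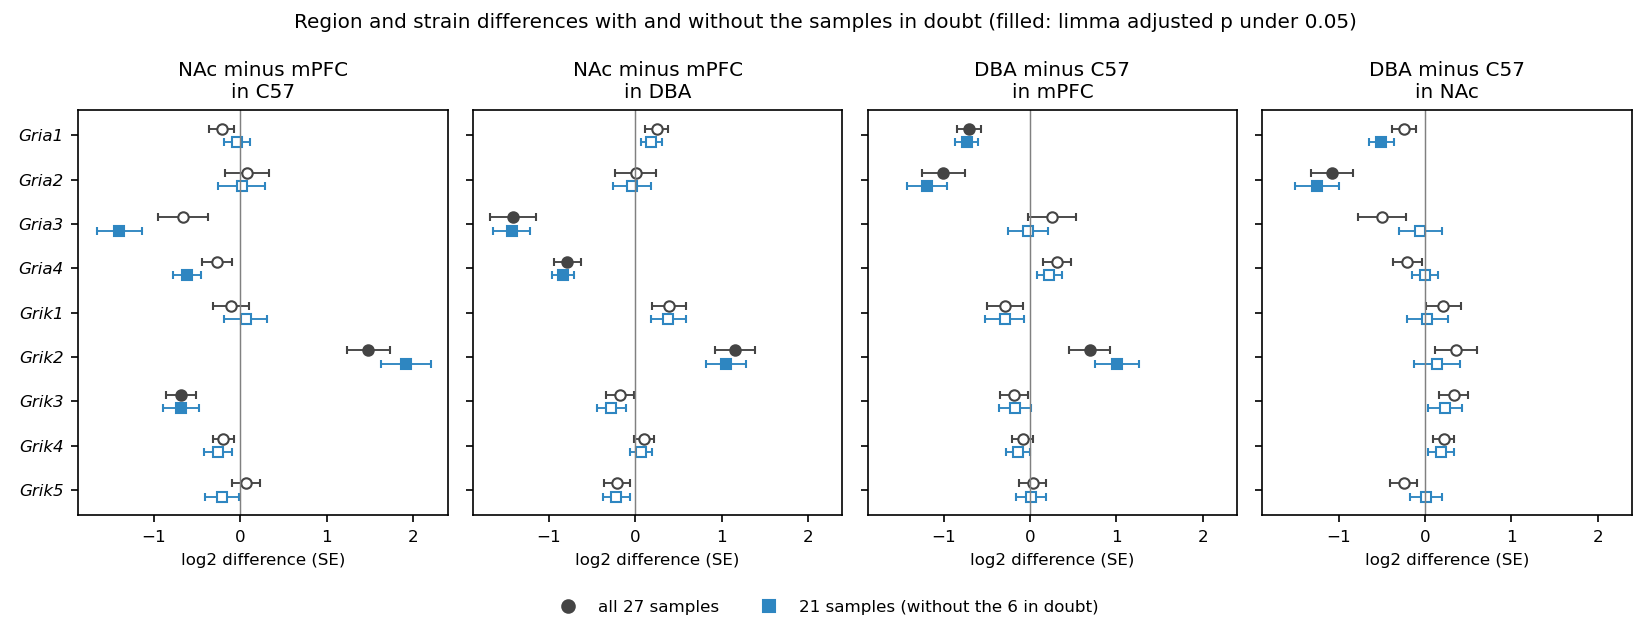
Region and strain log2 differences (points, ± SE) of the 9 members in all 27 samples (circles) and in the 21 samples left without those in doubt (squares); filled symbols have a limma adjusted p under 0.05. In C57 the region differences of Gria3 (-0.67 and -1.40) and Gria4 (-0.27 and -0.62) are filled only for the 21 samples.

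For members with 2 probes, the region differences can be read on both. The other Gria3 probe was also lower in the NAc of DBA mice (-1.07 ± 0.26, adjusted p = 0.0015), and the other Grik2 probe also higher there (1.17 ± 0.26, adjusted p = 0.00067). The other Gria4 probe had -0.40 ± 0.17 (adjusted p = 0.051), and the other Gria2 probe, unlike the first, was lower in the DBA NAc (-0.41 ± 0.14, adjusted p = 0.016). In C57 mice no other probe passed in all samples: the other Grik2 probe had 0.69 ± 0.28 (adjusted p = 0.11) and the other Gria3 probe -0.68 (adjusted p = 0.12). The other Grik2 probe gave -1.01 and -1.13 in the C57 mPFC samples in doubt and -2.08 and -1.49 in the C57 NAc samples in doubt, against -2.35 to -1.77 and -0.76 to -0.38 in the remaining samples of those regions. For strain, the other Grik2 probe had 0.17 in the mPFC (adjusted p = 0.62). The other Grik3 probe, dim and well above background on 26 arrays, was higher in DBA in the mPFC (0.72 ± 0.29, adjusted p = 0.047) and the NAc (0.78 ± 0.29, adjusted p = 0.044), where the first probe did not pass.

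**Figure D5:**
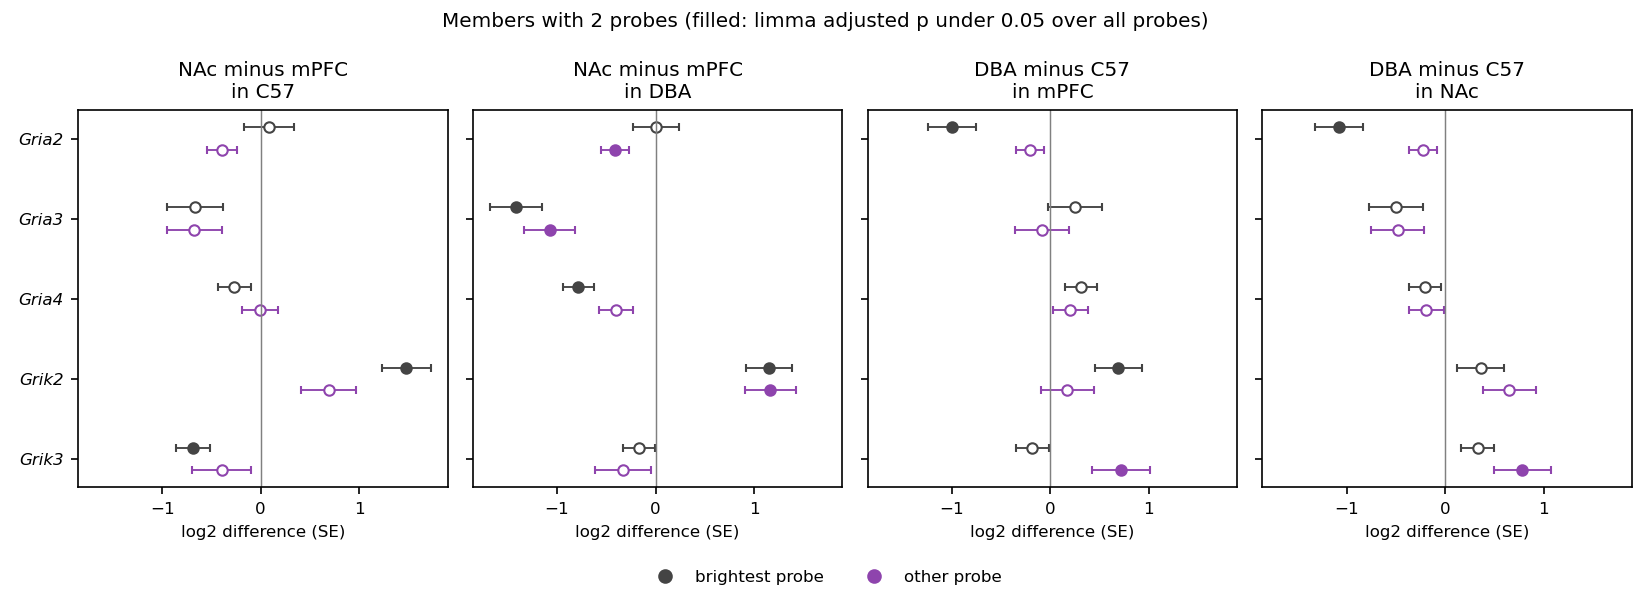
Log2 differences (± SE) of the brightest and the other probe of the 5 members with 2 probes, in the region and strain comparisons; filled points have a limma adjusted p under 0.05 over all probes. The Gria2 probes differ in both strain panels (-1.002 against -0.21 and -1.08 against -0.23), while the Grik2 probes lie together in DBA between regions (1.15 and 1.17).

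The third comparison, RCF against control, is the one the study's rearing protocol was made for. No member passed in any of the 4 strain and region settings, where 0%, 0.587%, 0% and 0% of all features passed in the C57 mPFC, C57 NAc, DBA mPFC and DBA NAc. At an unadjusted p under 0.05, limma gave 1 member in the C57 mPFC, 1 in the C57 NAc and 0 in either DBA region, and 741, 3357, 468 and 611 of all features.

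The member with the smallest p in the C57 mPFC was Grik4, which encodes the high-affinity subunit GluK4. Its log2 levels were 2.23, 2.83 and 2.04 in controls and 2.68, 2.79, 2.91 and 2.53 in RCF mice, so that the groups overlapped through control 2. The log2 difference was 0.36 ± 0.16 (95% interval 0.02 to 0.70, adjusted p = 1). In the C57 NAc it was Grik5, which encodes GluK5. Its levels were 4.19 (in doubt) and 3.20 in the averaged controls and 3.34, 3.41, 2.84 and 3.06 in RCF mice. The log2 difference was -0.53 ± 0.24 (95% interval -1.04 to -0.03, adjusted p = 0.41), and 1 of the 2 controls lay inside the range of RCF mice. Without that control (2 and 4, averaged) the estimate rested on the control in doubt and was -1.03 (adjusted p = 0.0359).

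In the C57 NAc, with 2 control and 4 RCF samples, the samples of 1 of the 9 members, Gria2, did not overlap. Its levels were 2.40 and 2.39 in controls and 1.63 to 2.24 in RCF mice, a log2 difference of -0.35 that did not pass. How many of all features did not overlap there was not counted. Estimates over the 9 members ranged from -0.17 to 0.36 in the C57 mPFC, -0.53 to 0.28 in the C57 NAc, -0.06 to 0.54 in the DBA mPFC and -0.24 to 0.49 in the DBA NAc. The 95% intervals reached from -0.82 to 0.89, -1.14 to 0.86, -0.69 to 1.26 and -0.87 to 1.22 over the members, so for Gria2, Gria3 and Grik5 in the C57 NAc, Grik2 in the DBA mPFC and Gria3 in the DBA NAc they reached past 1 log2 unit. Without the samples in doubt no member passed either; the C57 NAc then had 1 control sample, which is assumed to vary like the other groups.

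No member passed in any interaction. For strain by region, where 31.5% of all features passed, 3 members had an unadjusted p under 0.05: Gria1, whose NAc minus mPFC difference was higher in DBA by 0.46 ± 0.20 (adjusted p = 0.079), Gria4 (-0.52 ± 0.23, adjusted p = 0.091) and Grik3 (0.52 ± 0.24, adjusted p = 0.097). The Gria3 region difference, past the threshold in DBA and not in C57, gave an interaction that did not pass either (-0.75 ± 0.39, adjusted p = 0.15). Without C57 NAc control 2 and 4, which leaves only the control in doubt in that group, Gria1 had 0.58 and Gria3 -1.09. Without the samples in doubt they had 0.23 and -0.03. Without DBA NAc RCF 1, Grik3 passed (0.61, adjusted p = 0.0442). In the interactions with fostering, where 0% of features passed, the member with the smallest p was Grik5 in strain by fostering in the NAc (0.79 ± 0.31, adjusted p = 0.56). Its value was 1.28 without C57 NAc control 2 and 4, which leaves the control in doubt, and 0.39 without the samples in doubt.

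The members stand in a network of auxiliary and scaffold proteins, followed through a list of 38 measured genes chosen for known roles in receptor assembly, gating, anchoring and editing. In the NAc of DBA mice, 18 of them were lower and 6 higher than in the mPFC, where 37.2% and 19.5% of all features were (34.4% of the calls higher, but 46.6% under quantile normalization and 44.7% under another background correction); the list's median log2 difference was -0.30, that of all features -0.13. All 5 assembly genes were lower, among them Porcn (-0.56 ± 0.11, adjusted p = 0.00016) and Abhd12 (-0.59 ± 0.12, adjusted p = 0.00029). Of 13 AMPA auxiliary subunits 6 were lower and 4 higher. The transmembrane AMPA receptor regulatory protein (TARP) gene Cacng3 (-1.64 ± 0.19, adjusted p = 2.53e-07) and the cornichons Cnih2 (-0.53 ± 0.09) and Cnih3 (-2.18 ± 0.46) were lower, while the TARP genes Cacng4 (1.24 ± 0.28) and Cacng5 (1.28 ± 0.39) and the CKAMP genes Shisa7 (0.38 ± 0.14) and Shisa9 (0.59 ± 0.25) were higher.

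Outside the channel complex, Nptx1 (-2.89 ± 0.51) and Nptx2 (-2.61 ± 0.42), secreted pentraxins that cluster AMPA receptors, were lower in the DBA NAc, and so was C1ql3 (-4.12 ± 0.69), a secreted partner of presynaptic proteins that binds kainate receptors. Grip1, a PDZ scaffold of GluA2 and GluA3, was higher (0.67 ± 0.11). Shisa9 passed in 8 of 27 fits that each left out 1 sample, and Shisa7 in 26; the other named genes passed in all 27. The cortical marker list was lower over the same samples, and its part in these differences was not tested.

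In C57 mice 5 list genes were lower and 2 higher in the NAc (6.32% and 3.74% of all features): Porcn (-0.46), Abhd6 (-0.38), which encodes a lipase that binds unassembled AMPA subunits, Cnih2 (-0.34), C1ql3 (-2.38 ± 0.74) and Dlg3 (-0.41), and, higher, Cacng4 (1.29 ± 0.30, adjusted p = 0.0093) and Pick1 (0.50 ± 0.10, adjusted p = 0.0039). Porcn, Abhd6, Cnih2, C1ql3, Dlg3 and Cacng4 passed in the same direction in DBA, where Abhd6 had -0.33 and Dlg3 -0.43. With 1 sample left out in turn, C1ql3 passed in 13 of 27 fits and Dlg3 in 8. The 7 calls fell to 4 without C57 mPFC control 1 or control 2 and to 3 without C57 mPFC RCF 3. They also fell without C57 NAc control 2 and 4, which leaves only the control in doubt in that group. Counts were 2 under quantile normalization and 1 under another background correction, but 11 with array weights or with all 31 arrays as samples. Calls over all features were 2696, 1590, 5338 and 5553 in those settings, against 3034 as reported. Without the samples in doubt, which leaves 1 C57 NAc control, calls rose both in the list and over all features. Of all features called in C57, 37.1% were higher in the NAc, against 61.9% with the deposited log2 values. Pick1, which encodes a PDZ protein that helps internalise GluA2-containing receptors, was lower in the DBA NAc (-0.29 ± 0.10, adjusted p = 0.0131). Its strain by region interaction passed (-0.80 ± 0.14, adjusted p = 0.00021).

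Between strains in the mPFC, 11 list genes were higher and 7 lower in DBA (29.2% and 19.1% of all features; 60.4% of the calls higher, but 39.4% under another background correction). Pick1 (0.99 ± 0.10), Abhd12 (0.94 ± 0.13), the TARP genes Cacng3 (1.37 ± 0.19) and Cacng7 (1.10 ± 0.15), the scaffold gene Grip2 (1.18 ± 0.22), the delta receptor gene Grid1 (0.85 ± 0.16), Cpt1c (0.51 ± 0.10) and Epb41l1 (0.62 ± 0.15) were higher. Frrs1l, which encodes a factor for AMPA receptor assembly (-1.08 ± 0.27), Shisa6 (-0.57 ± 0.18), Grip1 (-0.46 ± 0.12), Abhd6 (-0.39), Nsf (-0.30), Porcn (-0.29) and Gripap1 (-0.21) were lower. Gripap1 passed in 7 of 27 fits with 1 sample left out, Porcn in 19 and Nsf in 21. In the NAc 1 was higher, Grid1 (0.81 ± 0.16), and 4 were lower: Frrs1l (-1.32 ± 0.27), Porcn (-0.40), Abhd6 (-0.35) and Gripap1 (-0.32), where 12.8% and 19.1% of all features passed (40.1% of the calls higher, but 50.4% under quantile normalization). Grid1, Frrs1l, Porcn, Abhd6 and Gripap1 thus passed in the same direction in both regions. The 5 calls of the NAc rose to 11 without DBA NAc RCF 4. They fell without C57 NAc control 1 and 3 and rose without control 2 and 4. Each of those fits leaves 1 C57 NAc control, in the second the control in doubt. The median of the list was 0.03 for the mPFC and -0.07 for the NAc.

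For strain by region, 1 list gene passed with a positive value, Grip1 (0.63 ± 0.16), and 6 with a negative one: Pick1, Cacng3 (-1.52 ± 0.27), Abhd12 (-0.78 ± 0.18), Cacng7 (-0.86 ± 0.22), Cpt1c (-0.44 ± 0.14) and Grip2 (-0.84 ± 0.31, in 11 of 27 fits with 1 sample left out), where 9.92% and 21.6% of all features passed. The positive share of all calls was 31.5%, but 45.1% under quantile normalization and 55.3% under another background correction. The calls rose in number without C57 NAc control 2 and 4, a fit that leaves only the control in doubt in that group. No list gene passed for fostering with all samples and the reported settings. Without C57 NAc control 2 and 4, which leaves the control in doubt, 3 did in the C57 NAc, and without C57 mPFC RCF 4, 1 did there. In the C57 NAc 3 also passed with all 31 arrays as samples, with or without a replicate block, and 1 passed with the deposited log2 values or the strictest probe filter. The smallest p-values belonged to Dlg1 (-0.45) and Neto2 (0.45) in the C57 mPFC, Gripap1 (-0.56, adjusted p = 0.063) and Dlg4 (-0.96, adjusted p = 0.16) in the C57 NAc, Cacng8 (-0.30) and Pick1 (0.18) in the DBA mPFC, and Epb41l1 (-0.40) and Porcn (0.22) in the DBA NAc. The editing enzymes Adar and Adarb1 did not pass in any region or strain comparison. Without the samples in doubt, which leaves 1 C57 NAc control, more list genes passed between regions in C57 and fewer between strains in the NAc. The same was true of all features.

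Across the 27 samples, which share strain, region and slide structure, the members were correlated pair by pair. Gria1 and Gria2 correlated at r = 0.77 and Gria3 and Gria4 at r = 0.66, while Gria3 and Grik2 ran in opposite directions (r = -0.71). Gria4 and Grik2 (r = -0.55) and Grik2 and Grik3 (r = -0.49) did so less closely. Gria3 and Grik5 correlated at r = 0.58. Among 13685 named genes well above background on all arrays, those most like Gria3 were Kcnma1 (r = 0.97) and Plch2 (0.97), and those most like Gria4 Osbpl5 (0.94) and Septin6 (0.94). Gria2 was most like Rsf1 (0.92) and Rbm45 (0.92), Gria1 like Med17 (0.91) and Stag1 (0.91), and Grik2 like Dstyk (0.92) and Vmn2r43 (0.92). The closest genes were Cracd (0.88) for Grik1, Hook2 (0.77) and Pik3r3 (0.75) for Grik4, and Wwc1 (0.85) and Letmd1 (0.82) for Grik5, with Ddx27 (0.85) and Npepps (0.84) for Grik3. These correlations describe the samples and carry no test.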

How the data were processed

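The arrays were Agilent mouse arrays read in 1 colour, 1 per sample (31). Per the file headers, the authors' scanner files were made with Agilent Feature Extraction 10.7.3.1 and hold for each spot a background-subtracted intensity, not normalized between arrays, beside median spot and background intensities and yes-or-no quality marks. The deposited value table holds log2 values of 30067 probes; the authors' scaling and probe selection are not given in the sources used here, and limma is named in the submitters' processing notes without a version or role. Each column of that table matched 1 scanner file up to a constant (r at least 0.99999, highest r with another file 0.998), and arrays took the sample of that column; an alternative kept the listed files, with all 31 arrays as samples. The file headers name an older genome build than the RefSeq tables used, so no probe coordinates are given.

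The values analysed were log2 of the intensity less the 75th percentile of the array. Control spots and outlier flags were left out, spots of a probe averaged, and probes kept that reached the well-above-background mark on 3 or more arrays of some group (43415 of 55681). The brightest probe stood for a gene. In 4 pairs of arrays of 1 group (controls 1 with 3 and 2 with 4 of the C57 NAc, and controls 2 with 4 and RCF 1 with 3 of the DBA mPFC), arrays differed by 0.408 to 0.695 times the spread of repeated spots, against at least 1.61 in the other pairs of the 45; each was averaged and counted as 1 sample, which left 27. Whether the replicates came from different litters is not given for each sample. They were treated as independent, with 1 estimate of the spread over the 8 groups, so p-values need not hold for other litters.

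Comparisons were made with limma 3.58.1 in R 4.3.3 (lmFit and eBayes with a trend) in 1 model with 8 group means, with Benjamini-Hochberg adjustment over 30164 features and a threshold of 0.05; each alternative was refitted and adjusted in the same way, and values of other probes were adjusted over all tested probes. The fit was tested on simulated data. Python 3.11.15 with pandas 2.3.3, numpy 2.4.6 and matplotlib 3.10.9 prepared the values and figures. Array signal over background and the number of samples limit the precision. Alternatives were quantile normalization, normexp background correction (offset 50, run on median intensities since no mean column was used), the deposited log2 values, other probe filters and probe summaries, all 31 arrays as samples, a replicate block, array weights, a tissue score as covariate, only the groups compared, and leaving out each sample or the 6 in doubt. The other probe of a gene was added after the values had been seen, as were the assignment of arrays, the limit for averaging and the samples in doubt.

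The receptor genes, the gene lists and the comparisons were chosen with earlier results of these data known. All 9 receptor genes are named; of the associated list, up to 8 genes per direction with the smallest p among those past the threshold, or the 2 with the smallest p where none passed; and for each receptor gene the 2 best correlated named genes. A few genes that this rule names are not reported here. Pick1, Abhd6 and Dlg3 in DBA between regions fall outside that rule and were named for comparison with C57 after their values were seen. Nptxr of the associated list and Nov of the cortical list were not matched to a probe by name and were not used here.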

Additional observations from a re-analysis of the deposited data

Results flagged for a closer look

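A sample stood apart from the others of its group, by a gap large against the group's range, in 5 of 48 group and measure pairs checked; chance alone gives about 1 in 20. Among the members, the Grik3 log2 level of C57 NAc RCF 3 was 1.44 against 2.05 to 2.16 in the other 3 samples (gap 0.855 of the range). The Gria1 level of DBA NAc RCF 4 was 3.34 against 2.72 to 2.80 (0.866). Label checks stood out as well: the tissue score of C57 NAc RCF 1 was -1.03 against 5.30 to 5.82 (0.924), the strain score of DBA NAc control 4 was 7.26 against 11.78 to 12.43 (0.874), and the strain score of DBA NAc RCF 3 was 11.99 against 12.44 to 12.48 (0.918).

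The region difference itself differed between strains, by limma's strain by region interaction over all features, for 7 receptor-associated genes and no member: Grip1 (0.6277), Pick1 (-0.7959), Cacng3 (-1.5237), Abhd12 (-0.7755), Cacng7 (-0.8566), Cpt1c (-0.4426) and Grip2 (-0.8425), where negative values mean a lower NAc minus mPFC difference in DBA.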

How the results depend on the processing

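The counts of members called kept within 1.5 times of the reported ones in all 13 comparisons under quantile normalization, normexp, the deposited log2 values, both probe filters and fits of only the groups compared, and in 8 of 8 with the tissue score as a covariate. For the region difference in C57 (reported 2 members), the count rose without the samples in doubt, as did the share over all features. It was 1 with the mean of a gene's probes and 2 to 3 with each replicate left out. Of all features 2715 were called there with the mean of probes, against 3034 as reported. For the region difference in DBA (reported 3) the count was 5 with array weights and 3 to 4 with each replicate left out. With array weights 20823 of all features were called there, against 17098 as reported. For strain in the NAc (reported 1) it was 2 with the mean of probes, 2 without the samples in doubt and 1 to 3; for strain in the mPFC (3) 2 to 3. For strain by region (reported 0) it was 2 with all 31 arrays, 2 with the replicate block and 1 with array weights. Of all features 11834, 11896 and 10566 were called in those settings, against 9498 as reported. The count was 1 without DBA NAc RCF 1 and rose without C57 NAc control 2 and 4. Fostering in the C57 NAc and strain by fostering in the NAc had a member called only with C57 NAc control 2 and 4 left out. That fit leaves only the control in doubt in its group. In the other fostering comparisons and interactions the count was 0 to 0 with each replicate left out.

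With scanner files as listed instead of matched to the value table, and all 31 arrays as separate samples, members called were 0 for region in C57, 0 for region in DBA, 4 for strain in the NAc, 2, 3 and 1 for fostering in the C57 mPFC, C57 NAc and DBA mPFC, and 1 for strain by fostering in the NAc. Of all 30164 features, 0, 0, 12438, 8483, 11490, 6432 and 6373 were called in the same order. Under that setting, the values that changed direction were, for region in C57, Grik2 -0.0415, Grik3 0.1449, Cacng4 -0.0029, Porcn 0.028, Cnih2 0.0361, C1ql3 0.3681 and Dlg3 0.0953; for region in DBA, Gria3 0.0132, Grik2 -0.0373, Grip1 -0.0791, Cacng5 -0.1585, Shisa7 -0.0482, Cnih2 0.018 and Cnih3 0.0287; for strain in the mPFC, Gria3 -0.9976, Gria4 -0.4861, Abhd12 -0.0903, Cacng3 -0.8112, Grip2 -0.0564, Cpt1c -0.1412, Epb41l1 -0.0212, Grip1 0.4954, Nsf 0.1144 and Gripap1 0.0857; for strain in the NAc, Gria2 0.2856, Grik3 -0.5464 and Gripap1 0.0507; for fostering, Gria1 -0.4722 (C57 mPFC) and -0.9292 (C57 NAc) and Gria2 -1.4751 (DBA mPFC); and for interactions, Gria1 0.7867 (strain by fostering, NAc) and Grip1 -0.2682 (strain by region). Listed are members and named list genes called as reported or in the alternative. Changes of sign in genes called in neither fit are not listed. On the other probe, Gria2 between regions in DBA was -0.4087 and Grik3 between strains in the mPFC 0.7161. With files as listed, 27 of the 31 arrays stood in a group other than that of the value table. By that table, arrays listed as C57 control in either region were C57 mPFC arrays, and those listed as C57 RCF were DBA mPFC arrays. Arrays listed as DBA control were C57 NAc arrays, and those listed as DBA RCF were DBA NAc arrays. Comparisons as listed thus set other groups against each other than their names say. Why the other probes differ was not tested.

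Receptor-associated genes called for region in C57 (reported 7) were 2 under quantile normalization, 1 under normexp, 11 with 31 arrays, 11 with array weights, 16 without the samples in doubt and 0 as listed; for region in DBA (24) 0 as listed; for strain in the NAc (5) 9 with 31 arrays, 8 with the replicate block, 2 without the samples in doubt and 17 as listed; for fostering in the C57 NAc (0) 1 with the deposited values, 1 with the strictest probe filter, 3 with 31 arrays, 3 with the block and 12 as listed, with 9, 4 and 2 as listed in the other fostering comparisons; for strain by region (7) 11 with 31 arrays, 12 with the block and 0 as listed; for strain by fostering as listed 5 in the mPFC and 6 in the NAc. In each of these settings the calls over all features moved in the same direction as those of the list. Same-numbered samples of different groups were not treated as pairs: in no pair of groups did every same-numbered pair correlate above 0.1. That check included the samples in doubt and cannot tell whether samples of 1 number came from the same mice. The replicate block was fitted to all 31 arrays as separate samples and called Gria1 and Gria4 for strain by region (0.49 and -0.58), as the 31 arrays did without it (0.46 and -0.55). The share of called features that were higher, 37.1%, 34.4%, 60.4% and 40.1% for region in C57 and DBA and strain in the mPFC and NAc, was 43.8%, 46.6%, 53.7% and 50.4% under quantile normalization, 28.3%, 44.7%, 39.4% and 44.5% under normexp, and 61.9%, 44.4%, 58.9% and 42.0% with the deposited values. For strain by region, 31.5% of calls were positive, against 45.1% under quantile normalization, 55.3% under normexp and 30.9% with the deposited values. Under normexp the median of all features moved to -0.11 for strain in the mPFC and from -0.09 to 0.12 for strain by region.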
